A study of Mus musculus and Acomys cahirinus with 25 samples.

Results

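The genes described here are 8 markers of skin T cells and Langerhans cells. Cd3d, Cd3e and Cd3g encode the CD3 chains of the T cell receptor complex, and Cd4 and Cd8a the coreceptors of helper and cytotoxic T cells. Foxp3 encodes the transcription factor of regulatory T cells and Gzmb the cytotoxic protease granzyme B. Cd207 encodes langerin, a lectin of Langerhans cells that some dermal dendritic cells also carry. They were chosen by symbol, and each was found among the 24500 gene symbols of every library.

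The study followed hair follicle formation in healing full-thickness wounds of the back skin and measured polyA RNA in 25 bulk RNA-seq libraries of separated epidermis and dermis. The 13 laboratory mouse libraries came from post-wound day 14 (PWD14), and the wound was divided into a center, taken with a punch, and the remaining margin. Wild-type (WT) mice gave 2 libraries each of center epidermis, margin epidermis and margin dermis and 5 of center dermis. The study names C57BL/6J as its primary mouse. The labels do not divide those 5 center libraries. Library names in the study put replicates 1 and 2 with the margin and replicates 3 to 5 with the K14-Cre-Twist1 comparison. In that comparison the controls were wild-type Twist1+/+ mice, so results over all WT dermis libraries can pool both kinds of mice. K14-Cre-Twist1 mice, labelled KO, gave 2 libraries of center dermis. They lack Twist1 where the keratin 14 promoter drives Cre, which is in keratinocytes, so that the dermis that was sequenced was not itself the target. The mice were 4 weeks old when wounded. The 12 spiny mouse (Acomys cahirinus, WT, 2 months old) libraries were of whole skin or wound with no region given. Epidermis gave 1 library of unwounded skin (PWD0), 2 of PWD14, 2 of PWD21 and 1 of PWD28, and dermis gave 2, 1, 2 and 1 libraries of these days. These days are those of the labels, and a list of samples in the study gives other days for the wounded spiny mice. Both sexes were used. The study calls its RNA-seq replicates independent, and how many animals went into a library is not given in the sources used here.

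Langerhans cells are the antigen-presenting cells of the epidermis. They depend on the cytokine IL-34, which keratinocytes make, and leave for the lymph nodes when skin is injured or inflamed. Mouse epidermis also holds a resident population of gamma delta T cells, the dendritic epidermal T cells, which carry CD3 but usually neither CD4 nor CD8, while CD4 T cells, including regulatory T cells, reside mainly in the dermis and around hair follicles. In bulk tissue, fewer cells of a type and less RNA of the gene per cell cannot be told apart.

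The CD3 genes form a cluster on mouse chromosome 9. On GRCm38, RefSeq places Cd3g at chr9:44969572-44980431 on the minus strand, Cd3d at chr9:44981769-44987052 on the plus strand and Cd3e at chr9:44998735-45009663 on the minus strand. Cd3g and Cd3d therefore start back to back, with 1337 bases between the gene ends, and Cd3e lies 11682 bases beyond Cd3d. Cd4 is at chr6:124864693-124888247, Cd8a at chr6:71373427-71379171, Cd207 at chr6:83671207-83677857, Gzmb at chr14:56258836-56262334 and Foxp3 at chrX:7579676-7595243. The 250 bases before the start of Cd3g, Cd3d and Cd207 are shown because Cd3d and Cd3g both changed in spiny mouse epidermis and because Cd207 passed the test in 4 comparisons. The start is that of the promoter set used, which for Cd3d lies just inside the gene span given above. They are mouse reference sequences from RefSeq (GRCm38.p6), written 5′ to 3′ along each gene's strand, and the sequence of the spiny mouse was not analysed here. Capitals mark matches, on either strand, to TGNGGT and to GAGGAA, the core of sites bound by PU.1 (Spi1). TGNGGT is looser than the core bound by Runx factors such as Runx3, which has C or T at N.
Cd3g, chr9:44980432-44980681, minus strand: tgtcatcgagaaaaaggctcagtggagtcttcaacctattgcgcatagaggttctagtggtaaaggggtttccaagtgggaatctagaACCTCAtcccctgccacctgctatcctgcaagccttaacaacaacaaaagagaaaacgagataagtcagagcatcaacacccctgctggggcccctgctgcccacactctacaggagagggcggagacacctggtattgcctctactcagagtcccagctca
Cd3d, chr9:44981536-44981785, plus strand: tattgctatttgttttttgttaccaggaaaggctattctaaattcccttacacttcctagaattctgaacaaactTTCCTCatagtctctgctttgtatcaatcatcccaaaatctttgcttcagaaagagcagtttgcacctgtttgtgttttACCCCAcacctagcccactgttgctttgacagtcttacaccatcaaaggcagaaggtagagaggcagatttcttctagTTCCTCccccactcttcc
Cd207, chr6:83677858-83678107, minus strand: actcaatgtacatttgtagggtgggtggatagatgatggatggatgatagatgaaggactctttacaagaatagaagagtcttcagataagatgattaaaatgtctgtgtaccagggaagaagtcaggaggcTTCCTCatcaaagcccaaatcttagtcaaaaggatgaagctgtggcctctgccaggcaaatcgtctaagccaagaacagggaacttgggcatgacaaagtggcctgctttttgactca
The TGNGGT letters occurred once each in the Cd3g and Cd3d windows, and in that of Cd3e, which is not shown, and not in that of Cd207, and 39.9% of 27025 RefSeq promoter windows of this length held at least 1 match. GAGGAA occurred 2 times for Cd3d, 1 time for Cd3e and 1 time for Cd207, and was not found for Cd3g, against 23.1% of all windows. In the Cd3g, Cd3d and Cd3e windows the N of each TGNGGT match was A or G, not the C or T of the Runx core. These matches describe letters only.

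The libraries held 19413261 to 86532134 reads on genes in laboratory mouse and 5669760 to 34751956 in spiny mouse, and 3 counts, below which a gene was treated as not detected, equalled 0.0347 to 0.155 and 0.0863 to 0.529 CPM. These limits cover counting error only. Levels are given as CPM, the counts of a gene scaled to the total over all gene rows of its library. The labelled layers carried their markers. The summed level of 9 keratinocyte genes was 154000 to 215000 CPM in laboratory mouse epidermis and 39700 to 84400 CPM in spiny mouse epidermis, and that of 8 fibroblast genes was 73100 to 145000 CPM in laboratory mouse dermis and 67500 to 152000 CPM in spiny mouse dermis. The KO dermis library 2 stood apart, with 35300 CPM of keratinocyte genes against 982 CPM in KO library 1 and at most 57.2 CPM in the 3 WT libraries of that comparison. Zeros were frequent in laboratory mouse libraries. Of 1249 genes with a median of 2 to 5 CPM over these 13 libraries, 41.7% were at 0 in KO library 2 and 22.7% in margin epidermis library 1, against 0.24% to 15.5% in the other 11, and 15 of the 104 values of the 8 genes were 0. In spiny mouse, at most 8.77% of such genes were at 0 in any library, as were 2 of the 96 values. Between 38.0% and 60.5% of spiny mouse reads were set aside for low alignment quality on the mouse genome, so levels are not compared between the species.

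Differences were tested with edgeR's quasi-likelihood test across all genes with Benjamini-Hochberg adjustment, and a gene was called at a false discovery rate (FDR) under 0.05. All 8 genes passed the low-count filter in each comparison. Between center and margin epidermis of laboratory mouse, 1 of the 8 was called, beside 1.24% of all genes tested. Between center and margin dermis (2 libraries each), 0 of 8 were called beside 0.850% of all genes, 0 had an unadjusted p under 0.05 and DESeq2 called 0. Between KO and WT center dermis, 0 of 8 were called beside 0.0565% of all genes, 1 had an unadjusted p under 0.05 and DESeq2 called 0. Between epidermis and dermis of WT laboratory mouse, 2 of 8 were called beside 60.4% of all genes. In spiny mouse, 2 of 8 were called between PWD14 and PWD21 epidermis beside 46.6% of all genes, 1 of 8 between PWD21 and PWD0 dermis beside 26.2%, and 5 of 8 between epidermis and dermis beside 54.0%. The layer comparison in laboratory mouse cannot be told apart from the read type, since epidermis was sequenced with paired-end reads and dermis with single-end reads.

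**Figure D1:**
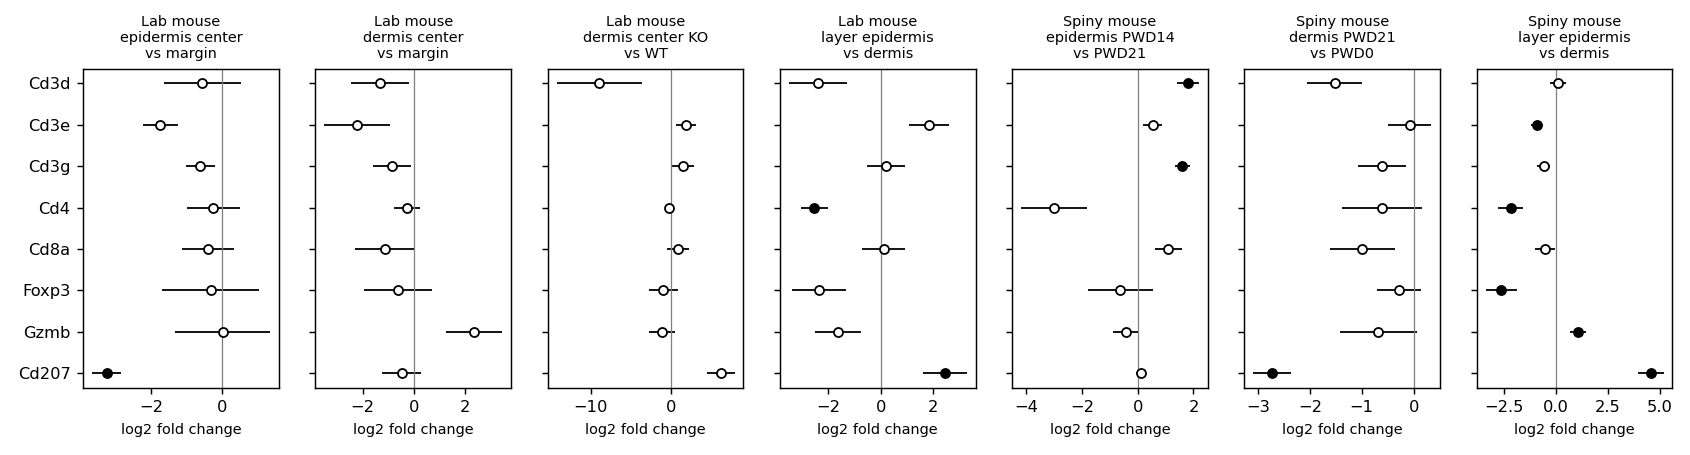
Log2 fold changes (horizontal axis, one panel per comparison, scales differ) of the 8 genes in the 7 comparisons of groups, first group over second. Bars are 1 standard error, filled points passed the FDR threshold and open points did not; the Cd3d value for KO against WT rests on 0 counts in both KO libraries and is no measure of size. Cd207 is the only one of the 8 that is filled in 4 of the panels.

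Cd207 was lower in the wound center than in the margin of laboratory mouse epidermis. Its level was 3.89 and 3.18 CPM in the center libraries and 39.6 and 23.5 CPM in the margin libraries. The margin values were both above the center values, with no overlap, and group means were 3.54 ± 0.497 and 31.5 ± 11.4 CPM (SD, n = 2 each). The log2 fold change of center over margin was -3.26 (SE 0.41), with an FDR of 0.039 in edgeR's quasi-likelihood test. Without center library 2 the FDR was 0.0576 at a log2 fold change of -3.14, and with all 13 laboratory mouse libraries in 1 fit it was 0.273 at -3.11. With the edgeR 3 estimate it was 0.0746 at -3.28. Keratinocyte genes did not separate the regions (173000 and 163000 CPM in the center, 154000 and 215000 CPM in the margin), whereas 8 fibroblast genes summed to 4980 and 4120 CPM in the center and to 1910 and 578 CPM in the margin, and the part of this in the Cd207 difference was not tested. Per 1000 CPM of keratinocyte genes, Cd207 was 0.0225 and 0.0195 CPM in the center and 0.257 and 0.109 CPM in the margin.

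In laboratory mouse dermis, Cd207 was low and did not separate center from margin beyond the spread of the fit. It measured 3.31 and 4.69 CPM in center libraries 1 and 2 and 4.74 and 6.98 CPM in the margin, groups that came close without overlapping, and the log2 fold change was -0.47 (SE 0.77, FDR 0.841, edgeR). Of 9 keratinocyte genes, 5 were lower in the center, beside 0.850% of all genes called. The 9 summed to 601 and 413 CPM in the center against 2210 and 4500 CPM in the margin. The difference between the epidermal and the dermal contrast, tested as an interaction over 8 libraries, was -2.64 (SE 0.70) with an FDR of 0.0703. That test called 0 of the 8 genes beside 3.48% of all genes and 1 had an unadjusted p under 0.05, whereas DESeq2 called Cd207 at -2.85 (FDR 0.00426). Without margin epidermis library 2 the edgeR FDR was 0.0226, and leaving out any other library gave 0.114 to 0.288.

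Center dermis libraries 3 to 5 of WT mice had 0, 0.806 and 0 CPM of Cd207, below the 2 KO libraries with 2.21 and 33.6 CPM. KO over WT had a log2 fold change of 6.32 (SE 1.71), and the FDR was 0.27. The high value belonged to the KO library with 35300 CPM of keratinocyte genes, 1 of which was called between KO and WT beside 0.0565% of all genes. Without that library the log2 fold change was 3.37 (FDR 0.877), and without the other KO library it was 7.20 (FDR 0.00107), so that a call depended on which library was used. Over 12 alternatives the FDR ranged from 0.00107 to 0.877. Per 1000 CPM of keratinocyte genes, Cd207 was 0.951 CPM in KO library 2 and 2.25 CPM in KO library 1. WT center libraries 3 to 5 had 0, 77.7 and 0, on few keratinocyte reads, and the 4 epidermis libraries had 0.0195 to 0.257. The part of carried-over epidermis in the Cd207 difference was not tested. Twist1 itself measured 73.4 and 44.0 CPM in the KO dermis libraries and 57.7, 36.3 and 105 CPM in the WT libraries, and the groups overlapped. As Cre acts in keratinocytes, this does not check the genotype label.

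Over all 11 WT libraries, Cd207 was higher in epidermis than in dermis, with means of 17.5 and 2.93 CPM and a log2 fold change of 2.45 (SE 0.84, FDR 0.0226, edgeR). The layers overlapped, since both center epidermis libraries lay within the dermal range of 0 to 6.98 CPM. With center libraries alone the log2 fold change was 1.82 and the FDR 0.18. The FDR also rose to 0.0655 without margin dermis library 1 and to 0.0509 without margin dermis library 2. It was 0.0793 with library size alone (log2 fold change 1.69) and 0.0823 with the edgeR 3 estimate (2.41). In order of mean level, margin epidermis came first, followed by KO center dermis, margin dermis, center epidermis and WT center dermis. Ranges of neighbours in this order overlapped except between margin dermis and center epidermis.

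**Figure D2:**
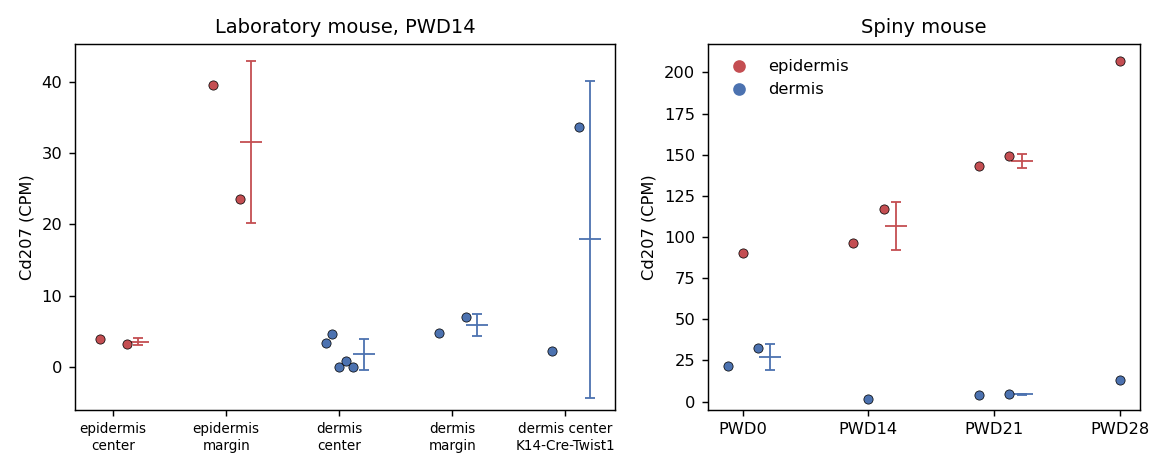
Cd207 level (vertical axis, CPM) in each library, by region and layer in laboratory mouse (left) and by post-wound day in spiny mouse (right, evenly spaced days), with epidermis in red and dermis in blue. Points are libraries and the bars beside them give the mean ± SD of groups of 2 or more; the margin epidermis libraries at 39.6 and 23.5 CPM lie above both center libraries, and each spiny mouse epidermis library lies above each dermis library.

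In spiny mouse, Cd207 separated the layers on every day. Unwounded epidermis (PWD0) held 90.5 CPM, followed by 96.3 and 117 CPM on PWD14, 143 and 149 CPM on PWD21 and 207 CPM on PWD28. Dermis held 21.3 and 32.8 CPM on PWD0, 1.77 CPM on PWD14, 3.97 and 4.63 CPM on PWD21 and 12.8 CPM on PWD28. The lowest epidermal value was above the highest dermal value, and the log2 fold change of epidermis over dermis was 4.57 (SE 0.61, FDR 8.29e-05, edgeR), with a range of 4.05 to 5.20 over 18 alternatives, all past the threshold.

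Within spiny mouse epidermis, the rank of the 4 days by Cd207 CPM was PWD28, PWD21, PWD14 and PWD0, with no overlap between neighbours, although PWD0 and PWD28 are single libraries with no spread of their own. The sign of the one comparison of days with replicates depended on the scaling. The log2 fold change of PWD14 over PWD21 was 0.10 (SE 0.16, FDR 0.646, edgeR), opposite to the CPM. The TMM factors were 0.675 and 0.713 at PWD14 and 0.960 and 0.992 at PWD21. Scaled to library size alone, the log2 fold change was -0.45 with an FDR of 0.0415, while the median of all genes was -0.59 against -0.04 before. A change of scaling shifts all genes nearly alike, so the place of Cd207 relative to the median gene is not a second result. Keratinocyte genes summed to 84400 and 78500 CPM at PWD14, to 80300 and 77300 CPM at PWD21 and to 50700 and 39700 CPM at PWD0 and PWD28.

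In spiny mouse dermis, Cd207 fell between unwounded skin and PWD21. The log2 fold change of PWD21 over PWD0 was -2.73 (SE 0.36, FDR 0.00164, edgeR), with group means of 4.30 ± 0.47 and 27.1 ± 8.08 CPM (SD, n = 2 each). The call held in each of 10 alternatives, with log2 fold changes from -2.88 to -2.53. Of 9 keratinocyte genes, 8 were also lower at PWD21, as were all 6 mast cell genes, beside 26.2% of all genes called. The 9 keratinocyte genes summed to 669 and 1220 CPM at PWD21 against 7760 and 6150 CPM at PWD0. Cd207 per 1000 CPM of keratinocyte genes was 2.75 and 5.33 CPM at PWD0 and 5.93 and 3.80 CPM at PWD21, ranges that overlapped. The single libraries of PWD14 and PWD28 had 1.03 and 3.33. The parts of carried-over epidermis and of dermal dendritic cells in dermal Cd207 were not tested.

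Among the CD3 chains, Cd3d and Cd3g were higher at PWD14 than at PWD21 in spiny mouse epidermis. Cd3g encodes the gamma chain and Cd3d the delta chain, each of which pairs with the epsilon chain in the receptor complex. Cd3g measured 19.2 and 14.8 CPM at PWD14 and 9.31 and 6.68 CPM at PWD21, without overlap, and its log2 fold change was 1.60 (SE 0.27, FDR 0.000872, edgeR). Cd3d measured 10.5 and 5.87 CPM at PWD14 and 4.14 and 2.28 CPM at PWD21, again without overlap, with a log2 fold change of 1.80 (SE 0.40, FDR 0.00374). Both calls held in 10 of 10 alternatives, and with library size alone, where the median gene was at -0.59, the log2 fold changes were 1.05 and 1.26. Cd3e, the epsilon chain, measured 4.42 and 3.76 CPM at PWD14 and 4.35 and 3.77 CPM at PWD21. These ranges overlapped, and its log2 fold change of 0.53 (SE 0.34) had an FDR of 0.222. The share of the summed CD3 counts that fell on Cd3e was 12.9% and 15.4% at PWD14 and 24.4% and 29.6% at PWD21.

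The sum of the 3 chains was 34.2 and 24.4 CPM at PWD14, 17.8 and 12.7 CPM at PWD21, 11.1 CPM at PWD0 and 8.83 CPM at PWD28 in spiny mouse epidermis. PWD14 was thus the highest of the 4 days for the sum, for Cd3g and for Cd3d, in both libraries. Among 4 tested general leukocyte genes, 1 was higher and 3 were lower at PWD14 than at PWD21, beside 46.6% of all genes called. Their median log2 fold change was -1.21.

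**Figure D3:**
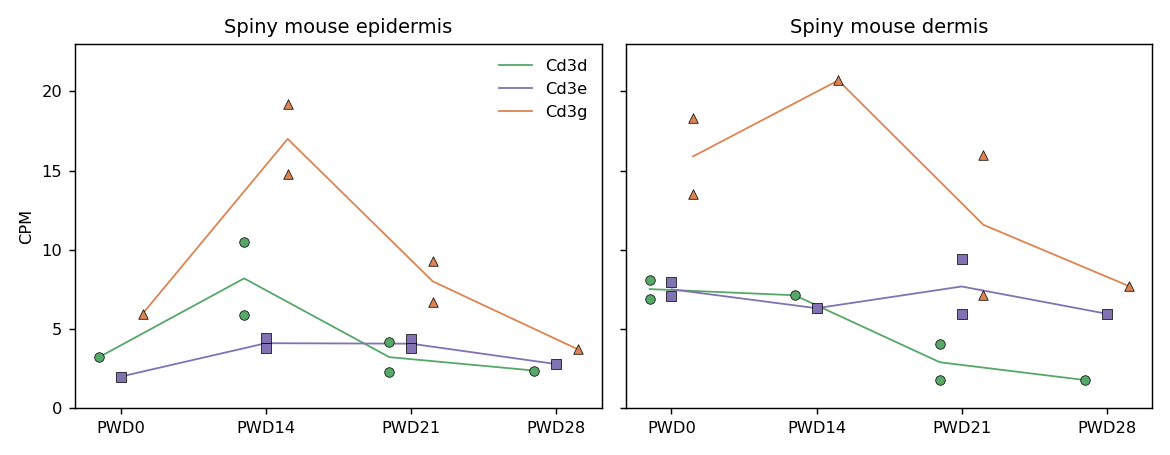
CPM (vertical axis) of Cd3d, Cd3e and Cd3g in spiny mouse epidermis (left) and dermis (right) by post-wound day, with days evenly spaced. Points are libraries and lines join the group means, of which PWD0 and PWD28 epidermis and PWD14 and PWD28 dermis rest on 1 library; Cd3g in epidermis is highest in the PWD14 libraries at 19.2 and 14.8 CPM.

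In spiny mouse dermis, no CD3 chain was called between PWD21 and PWD0. Cd3d measured 8.11 and 6.91 CPM at PWD0, 7.12 CPM at PWD14, 4.01 and 1.76 CPM at PWD21 and 1.76 CPM at PWD28. Its PWD0 and PWD21 values did not overlap, and the log2 fold change of PWD21 over PWD0 was -1.52 (SE 0.53, FDR 0.0662, edgeR), with an FDR of 0.00737 without PWD0 library 2. Cd3g measured 18.3 and 13.5 CPM, 20.7 CPM, 16.0 and 7.14 CPM and 7.71 CPM on the same days, with overlap and a log2 fold change of -0.61 (SE 0.46, FDR 0.355). Cd3e lay between 5.95 and 9.39 CPM in all 6 dermis libraries, and its log2 fold change was -0.08 (SE 0.42, FDR 0.908). The Cd3e share of the CD3 sum was 21.1% and 28.0% on PWD0, 18.4% on PWD14, 32.0% and 40.1% on PWD21 and 38.6% on PWD28.

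Between the layers of spiny mouse skin, Cd3e was lower in epidermis, where it ranged from 1.98 to 4.42 CPM against 5.95 to 9.39 CPM in dermis. The layers did not overlap, and the log2 fold change of epidermis over dermis, fitted with day as a factor, was -0.93 (SE 0.30, FDR 0.0205, edgeR). This call did not hold in 4 of 18 alternatives. Its FDR was 0.0531 without PWD28 epidermis, 0.0598 without PWD21 dermis library 1, 0.0534 without PWD28 dermis and 0.0762 with PWD21 libraries only. Cd3g (log2 fold change -0.61, SE 0.32, FDR 0.126) and Cd3d (0.09, SE 0.39, FDR 0.866) were not called and their layers overlapped.

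Per kilobase of exon, on the mouse gene models, Cd3g was the highest chain by median in both layers of spiny mouse skin, at 7.82 CPM in epidermis and 14.4 CPM in dermis, against 2.27 and 3.38 CPM for Cd3d and 2.58 and 4.57 CPM for Cd3e. These levels also depend on how well spiny mouse reads of each gene align to the mouse genome, which was not tested.

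In laboratory mouse epidermis, Cd3e had 2.37 and 1.75 CPM in the center and 8.39 and 4.95 CPM in the margin. The regions did not overlap, but the log2 fold change of -1.74 (SE 0.50) had an FDR of 0.136 in edgeR's quasi-likelihood test. Alternatives ranged from an FDR of 1.5e-05 to 0.823. DESeq2 gave 0.0328, and the call was also made without margin library 1 (FDR 0.00893, log2 fold change -1.28) and without margin library 2 (FDR 1.5e-05, log2 fold change -2.16), each of which leaves 1 library that is assumed to vary like the other group. Cd3g measured 2.59 and 2.57 CPM in the center and 3.80 and 3.63 CPM in the margin, also without overlap, with a log2 fold change of -0.61 (SE 0.41, FDR 0.404). Cd3d was at 0.28, 0.362, 0 and 0.647 CPM, with 0 counts in margin library 1, which held 296 counts of Cd3e.

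Between the layers of WT laboratory mouse skin, the log2 fold change of Cd3e in epidermis over dermis was 1.85 (SE 0.77, FDR 0.0525, edgeR), and it was 2.81 (FDR 0.000349) without center dermis library 3, which had the highest dermal value. Cd3d (-2.40, SE 1.11, FDR 0.078) had the opposite sign, and Cd3g (0.19, SE 0.72, FDR 0.836) changed sign with the scaling, to -0.57 with library size alone. The 3 chains also ranked differently from library to library in dermis. Cd3d was at 0 counts in center libraries 1 and 3 and in both KO libraries. Center library 3 held 134 counts of Cd3e (4.68 CPM) and 0 of both Cd3d and Cd3g. Center library 5 held 176 counts of Cd3d and 150 of Cd3g but 8 of Cd3e, and center library 2 held 70 and 50 against 1. Since these proteins assemble into 1 complex, the summed level was used as well. It was 6.34 and 6.23 CPM in center libraries 1 and 2 and 11.7 and 17.7 CPM in the margin, without overlap. Center library 5, at 12.7 CPM, lay above the lower margin value, so that all 5 center libraries together overlapped the margin. With center libraries 1 and 2, each chain had a negative log2 fold change of center over margin. These ran from -2.22 (SE 1.28) for Cd3e to -0.86 (SE 0.74) for Cd3g, with FDRs of 0.453 to 0.652 in edgeR's quasi-likelihood test. The KO libraries had a sum of 2.59 and 26.2 CPM, and center libraries 3 to 5 had 4.68, 1.91 and 12.7 CPM, which overlap. The value of 26.2 CPM was in the KO library with high keratinocyte genes.

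**Figure D4:**
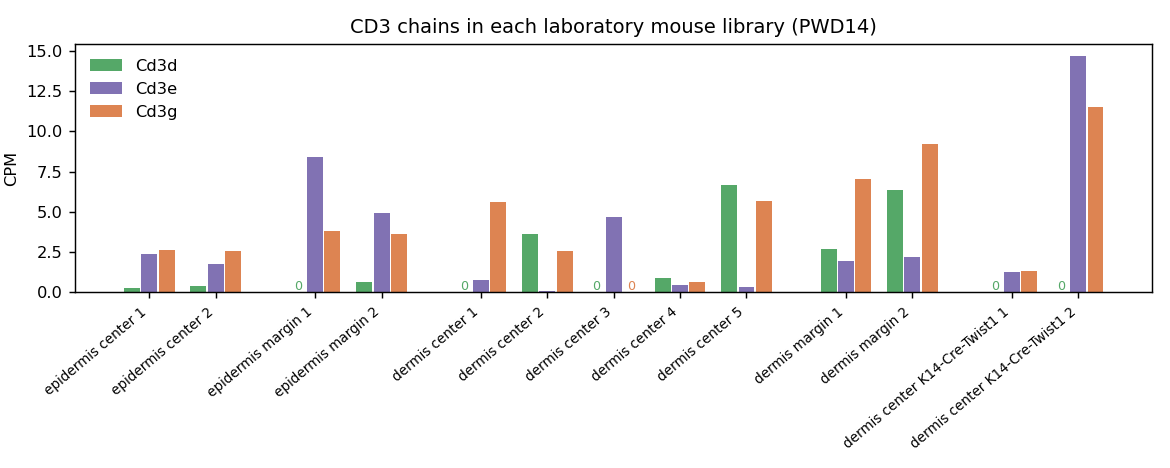
CPM (vertical axis) of Cd3d, Cd3e and Cd3g in each of the 13 laboratory mouse libraries at PWD14, grouped by layer and region, where a printed 0 marks a gene with 0 counts. The 3 chains differ in rank between dermis libraries, from Cd3e alone in center library 3 to mainly Cd3d and Cd3g in center library 5.

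The coreceptor genes differed in how they followed the layers. Cd4, also found on some macrophages and dendritic cells, measured 2.11 and 1.43 CPM in center epidermis and 3.57 and 1.04 CPM in margin epidermis of laboratory mouse. In WT dermis it measured 9.83, 13.9, 35.4, 22.6 and 33.0 CPM in the center and 12.8 and 17.3 CPM in the margin. Every dermis value was above every epidermis value, and the log2 fold change of epidermis over dermis was -2.53 (SE 0.52, FDR 0.00112, edgeR), past the threshold in 18 of 18 alternatives. All 9 macrophage genes and all 5 leukocyte genes were lower in epidermis as well, beside 60.4% of all genes called. The macrophage genes summed to 34.6 to 73.0 CPM in epidermis and to 1430 to 3040 CPM in dermis, and their part in the Cd4 difference was not tested. Relative to the CD3 sum, Cd4 was 0.113 to 0.402 in epidermis and 0.975 to 11.8 in WT dermis.

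Cd4 did not separate center from margin or KO from WT. Center dermis libraries 3 to 5 (22.6 to 35.4 CPM) lay above libraries 1 and 2 (9.83 and 13.9 CPM), so that the sign of the center-margin contrast depended on which were used. It was -0.26 (SE 0.51, FDR 0.874) with libraries 1 and 2 and 0.83 with all 5. KO libraries had 20.1 and 33.1 CPM, which overlapped the 22.6 to 35.4 CPM of their WT libraries.

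In spiny mouse, Cd4 ranged from 0 to 1.20 CPM in epidermis and from 0.705 to 6.61 CPM in dermis, and the log2 fold change of epidermis over dermis was -2.19 (SE 0.61, FDR 0.00811, edgeR), past the threshold in 18 of 18 alternatives although the ranges overlapped. At PWD14 the epidermis libraries held 0 and 2 counts of Cd4, at or under the detectable amount, against 23 and 21 counts (0.680 and 1.20 CPM) at PWD21. The PWD21 mean was 4.04 times the CPM of 3 counts in the PWD14 library where they weigh most. This figure uses CPM without TMM scaling and is no lower bound on the difference. The FDR was 0.0525, and it was 0.0186 with library size alone. In the same libraries the CD3 sum was highest at PWD14, on which day Cd4 was 0 and 0.00522 of that sum, against 0.0382 and 0.0942 at PWD21. The difference in these ratios was not tested.

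Cd8a, the alpha chain of CD8, was low and was not called in any of these comparisons. In spiny mouse epidermis it measured 0.189 CPM at PWD0, 2.17 and 1.53 CPM at PWD14, 1.09 and 1.48 CPM at PWD21 and 0.308 CPM at PWD28. The PWD14 values were just above the PWD21 values, and the log2 fold change was 1.10 (SE 0.49, FDR 0.0873, edgeR). Dermis ranged from 0.488 to 3.12 CPM, with the highest value at PWD14. In laboratory mouse, Cd8a ranged from 0.740 to 1.87 CPM in epidermis and from 0.252 to 5.98 CPM in WT dermis, and it was at 0 and 9.95 CPM in the KO libraries.

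Foxp3 was low in epidermis of either species. In spiny mouse it measured 0.189 CPM at PWD0, 0.620 and 0 CPM at PWD14, 0.296 and 1.26 CPM at PWD21 and 0.821 CPM at PWD28 in epidermis. In dermis it measured 4.76 and 6.91 CPM at PWD0, 0.294 CPM at PWD14, 5.75 and 4.52 CPM at PWD21 and 6.44 CPM at PWD28. The single PWD14 library was low, with 5 counts, while the other 5 dermis libraries held 27 to 157. That library had 107 counts of Cd3e and 352 of Cd3g, and its CD3 sum of 34.1 CPM was the highest of the dermis libraries. With 1 library the day could not be tested. The log2 fold change of epidermis over dermis was -2.64 (SE 0.77, FDR 0.0113, edgeR) and held in 18 of 18 alternatives, whereas PWD21 and PWD0 dermis overlapped (log2 fold change -0.28, SE 0.43, FDR 0.657).

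In laboratory mouse, Foxp3 ranged from 0 to 0.22 CPM in epidermis and from 0 to 2.17 CPM in WT dermis, where 2 of the 7 libraries were at 0. The log2 fold change of epidermis over dermis was -2.35 (SE 1.04, FDR 0.0598, edgeR). Alternatives had FDRs from 0.0128 to 0.235, and the call was made with library size alone, without center dermis library 1 (FDR 0.0363) and without center dermis library 4 (FDR 0.0366).

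**Figure D5:**
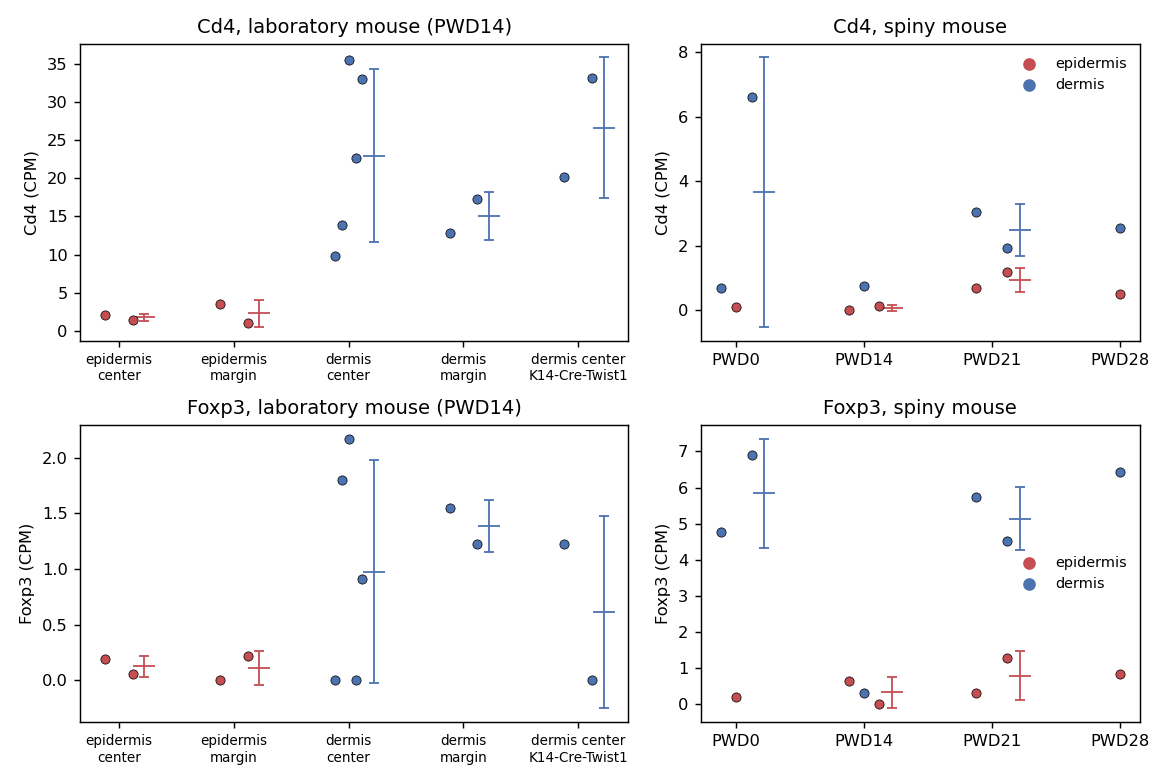
Cd4 (top) and Foxp3 (bottom) level (vertical axis, CPM) in each library of laboratory mouse at PWD14 (left) and spiny mouse by post-wound day (right), with epidermis in red and dermis in blue. Points are libraries and bars give the mean ± SD of groups of 2 or more; Foxp3 in spiny mouse dermis is at 0.294 CPM at PWD14 and between 4.52 and 6.91 CPM on the other days.

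Gzmb was low in laboratory mouse epidermis, at 0 to 0.398 CPM, with 27 and 3 counts in the center and 0 and 28 in the margin. In dermis it measured 2.31 and 2.88 CPM in center libraries 1 and 2 against 0.301 and 0.766 CPM in the margin. These dermis groups did not overlap, but the log2 fold change of 2.37 (SE 1.10) had an FDR of 0.321 in edgeR's quasi-likelihood test. Center libraries 3 to 5 had 2.41, 0.706 and 0.835 CPM and overlapped the margin values. In spiny mouse, Gzmb ranged from 0.944 to 2.84 CPM in epidermis, with both PWD21 libraries (2.84 and 2.46 CPM) highest, and from 0.633 to 1.47 CPM in dermis. The log2 fold change of epidermis over dermis was 1.07 (SE 0.39, FDR 0.0385), and the layers overlapped. This call did not hold in 11 of 18 alternatives, whose FDRs reached 0.134. DESeq2 gave 0.0521, and leaving out any 1 of the PWD14 or PWD21 libraries of either layer gave 0.0577 to 0.134. Between PWD14 and PWD21 epidermis the CPM values did not overlap (1.55 and 1.21 against 2.84 and 2.46), and the log2 fold change was -0.43 (SE 0.46, FDR 0.466), where the median gene moved with the scaling as given above for Cd207.

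Other genes of T cell receptor signaling and costimulation were counted from a list of 16. In the comparison of PWD14 with PWD21 in spiny mouse epidermis, 2 of 14 tested were higher and 0 lower beside 46.6% of all genes called, with a median log2 fold change of 0.11 against -0.04 over all genes. They were Ptprcap, a partner of CD45 (means of 4.67 and 1.63 CPM, log2 fold change 2.01, SE 0.39, FDR 0.00175), and the adhesion receptor Cd2 (4.50 and 3.18 CPM, log2 fold change 1.07, SE 0.34, FDR 0.0237). Cd247, the zeta chain of the same receptor complex, had means of 1.06 and 1.38 CPM and was not called (FDR 0.747). Between PWD21 and PWD0 dermis, 1 of 15 was higher and 2 lower, beside 26.2% of all genes. The adaptors Lat (6.15 against 30.4 CPM) and Skap1 (3.39 against 14.3 CPM) fell with log2 fold changes of -2.39 and -2.17, and the transcription factor Tcf7, which fibroblasts of the skin can also express, rose from 11.2 to 39.8 CPM. Mast cells express Lat as well. Their 6 genes summed to 5940 and 5350 CPM at PWD0 against 646 and 471 CPM at PWD21, whose part in the Lat difference was not tested. Between the layers of spiny mouse skin 2 of 16 were higher and 8 lower in epidermis beside 54.0% of all genes (median -0.86 against 0.01 over all genes), led by Cd6, at 0.910 against 6.49 CPM. In laboratory mouse, 0 of 15 were called between center and margin epidermis by edgeR, beside 1.24% of all genes. Of the 15, 0 had an unadjusted p under 0.05 and DESeq2 called 0. Between the layers 1 of 14 was higher and 2 lower in epidermis than in dermis beside 60.4% of all genes, among them Cd28 (0.133 against 4.57 CPM) and Cd247 (0.904 against 6.26 CPM).

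Of 13 genes of gamma delta and innate-like T cells, 1 of 11 tested was lower in center than in margin epidermis of laboratory mouse, beside 1.24% of all genes. This was Zbtb16, which encodes PLZF, at 0.118 and 0.109 CPM in the center and 3.68 and 2.88 CPM in the margin (log2 fold change -4.89, SE 0.70, FDR 0.0369). In this comparison DESeq2 also called 1 gene of the list, whereas the edgeR 3 estimate called 0 of all genes. Zbtb16 was also lower at PWD21 than at PWD0 in spiny mouse dermis (0.319 and 1.12 against 5.29 and 4.85 CPM, FDR 0.019). Il17f, a cytokine of such cells, was higher at PWD21 there (4.70 and 5.15 against 0.353 and 1.62 CPM, log2 fold change 2.22, SE 0.65, FDR 0.0374). Between PWD14 and PWD21 epidermis, 0 of 11 were called by edgeR beside 46.6% of all genes, 1 had an unadjusted p under 0.05 and DESeq2 called 0. Between layers, 1 was higher and 3 lower of 12 in spiny mouse beside 54.0% of all genes, and 1 higher and 3 lower of 10 in laboratory mouse beside 60.4%, where Sox13 (5.52 against 23.6 CPM) and Cd163l1 (0.693 against 6.54 CPM) were lower in epidermis. The genes for the constant parts of the gamma and delta receptor chains were not matched and were not analysed here. Which cells carried Zbtb16, Sox13 and the other genes of this list was not tested.

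Of 10 genes of regulatory T cells, 2 of 5 tested were higher and 1 lower at PWD14 than at PWD21 in spiny mouse epidermis, beside 46.6% of all genes. Tnfrsf18 (GITR) had 14.6 and 12.3 CPM at PWD14 and 10.8 and 7.14 CPM at PWD21 (log2 fold change 1.10, FDR 0.00854), and Tnfrsf4 (OX40) had means of 4.82 and 3.75 CPM (FDR 0.0449). The inhibitory receptor Ctla4 went the other way, from 0.310 and 0.191 CPM at PWD14 to 1.33 and 3.14 CPM at PWD21 (log2 fold change -2.48, SE 0.85, FDR 0.0315). Its PWD14 values were close to the CPM of 3 counts, 0.233 and 0.191 in these libraries, so the size of the change is uncertain. Of the 5 tested, edgeR called 3 and DESeq2 called 2. Between PWD21 and PWD0 dermis, Lrrc32 rose and Il10 and Tnfrsf18 fell, of 10 tested, beside 26.2% of all genes. Between the layers, 2 of 10 were higher and 4 lower in spiny mouse epidermis, beside 54.0% of all genes. Ikzf2 (33.5 against 7.02 CPM) was higher and Lrrc32 (0.205 against 18.0 CPM) lower. Foxp3 itself was lower in epidermis, as given above, with means of 0.53 and 4.78 CPM. Which cells carried Ikzf2 and Lrrc32 was not tested. In laboratory mouse, 2 of 9 tested were higher and 1 lower in epidermis, beside 60.4% of all genes. Tnfrsf18 was among the higher (7.14 against 1.09 CPM, FDR 0.0012), without overlap.

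Of 17 cytotoxic and natural killer cell genes other than Gzmb, few were high enough to test in epidermis. Between PWD14 and PWD21 in spiny mouse epidermis, 1 of 4 tested was higher and 0 lower by edgeR, beside 46.6% of all genes, and DESeq2 called 0. It was Gzmm (1.86 and 1.21 CPM at PWD14 against 0.769 and 0.628 CPM at PWD21, FDR 0.0345). In dermis Gzmm and Klrg1 were lower at PWD21 than at PWD0, 2 of 7 tested beside 26.2% of all genes. Klrg1, an inhibitory receptor of natural killer and T cells that is also known from mast cells, had 8.82 and 7.05 CPM at PWD0 and 0.319 and 0.662 CPM at PWD21, and was at 0 in all 6 epidermis libraries. In laboratory mouse, 0 of 10 were called by edgeR between the layers, beside 60.4% of all genes. Of the 10, 3 had an unadjusted p under 0.05 and DESeq2 called 0. Gzma, granzyme A, was at 0 counts in both KO libraries and at 0, 0.101 and 3.04 CPM in the WT libraries.

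Antigen presentation genes were described from a list of 17 genes of Langerhans and dendritic cells and one of 7 genes of Langerhans cell survival and development. Between center and margin epidermis of laboratory mouse, where Cd207 was lower in the center, 0 of 15 and 0 of 7 were called by edgeR, beside 1.24% of all genes. At an unadjusted p under 0.05 there were 1 and 0, and DESeq2 called 1 and 0. The median log2 fold changes were -0.35 and -0.51 against -0.02 over all genes. The MHC class II gene H2-Aa had 139 and 112 CPM in the center and 143 and 133 CPM in the margin, and Itgax (CD11c) means of 10.3 and 6.68 CPM without overlap (log2 fold change 0.52, SE 0.31, FDR 0.355). Il34 overlapped between the regions, at 13.6 and 10.8 against 7.71 and 24.7 CPM.

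In spiny mouse epidermis, 3 of 12 tested genes of the first list were higher and 2 lower at PWD14 than at PWD21, and 1 of 7 of the second was higher and 1 lower, beside 46.6% of all genes. H2-Eb1 had 575 and 512 CPM at PWD14 and 352 and 328 CPM at PWD21 (log2 fold change 1.23, SE 0.16, FDR 0.000192), and the migration receptor Ccr7 had 1.63 and 4.85 against 15.8 and 19.7 CPM (log2 fold change -1.85, SE 0.37, FDR 0.00221). Ccr7 was at 12.7 CPM at PWD0 and at 111 CPM in the PWD28 library, which also had the highest Cd207. Csf1r, the receptor of IL-34, was lower at PWD14 (6.05 and 11.4 against 35.5 and 43.0 CPM, log2 fold change -1.60, SE 0.27, FDR 0.000784), and Spi1 (PU.1) was higher (10.9 and 11.4 against 4.02 and 2.17 CPM, log2 fold change 2.31, SE 0.33, FDR 0.000297). Of 7 tested macrophage genes, 4 were higher and 1 lower at PWD14 (median log2 fold change 1.58), beside the same 46.6% of all genes. The list of 9 macrophage genes summed to 24.5 and 23.7 CPM at PWD14 and to 16.3 and 18.6 CPM at PWD21. Their part in the H2-Eb1 and Spi1 differences was not tested. Il34 was at 31.5 and 31.9 CPM at PWD14, 39.4 and 41.1 CPM at PWD21 and 44.5 CPM at PWD28, and at 138 CPM in the PWD0 library. Its log2 fold change of PWD14 over PWD21 was 0.21 (SE 0.18, FDR 0.362).

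Between the layers of spiny mouse skin, Il34 was higher in epidermis with Cd207, at means of 54.4 and 12.8 CPM (log2 fold change 2.21, SE 0.23, FDR 1.47e-05), as were Itgax and Ly75 (DEC-205). Cd209a, a marker of dermal dendritic cells, was lower in epidermis (0.414 against 22.2 CPM, log2 fold change -4.96, SE 0.61). Altogether 2 of 16 genes of the first list were higher and 3 lower in epidermis, beside 54.0% of all genes. Of the 7 genes of the second list, Il34 was the 1 higher and 4 were lower (median -0.75 against 0.01 over all genes), with Spi1 at 6.88 against 23.3 CPM (log2 fold change -1.92, SE 0.28, FDR 0.000154). In laboratory mouse, 0 of 17 genes of the first list were higher and 12 lower in epidermis beside 60.4% of all genes, with Itgax at 8.47 against 55.1 CPM. Of the 7 genes of the second list 0 were higher and 5 lower, with Csf1r at 16.2 against 311 CPM. In spiny mouse dermis, the MHC class II genes H2-Aa (643 and 576 CPM at PWD0, 255 and 168 CPM at PWD21) and H2-Eb1 (511 and 523 against 266 and 158 CPM) fell as well. The dendritic cell gene Clec9a also fell, from a mean of 2.91 CPM at PWD0 to 0.725 CPM at PWD21. Of 15 tested genes 0 were higher and 3 lower, beside 26.2% of all genes.

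The genes whose log2(CPM + 0.5) was most like that of Cd207 were, over the 12 spiny mouse libraries, Mal2, Ephb6, Stap2, Rassf7 and Cxadr, each with a Pearson r of 0.98. Over the 13 laboratory mouse libraries they were Tfrc (r = 0.93), Ahnak, Appl2, Chmp3 and Snhg4 (r = 0.90). Cd3e was most like Coro1a (r = 0.96), Rilpl2, Rhoa, Ms4a6b and Arpc1b in spiny mouse and Pyroxd1 (r = 0.89), Gm14057, Sh3d21, Zfp711 and Lgr6 in laboratory mouse. Gzmb was most like Rars (r = 0.93), Chil1, Sdr39u1, Mmadhc and Cct8 in spiny mouse, and its mean in laboratory mouse was under the 1 CPM required. These are descriptions over libraries that share layer, day and depth, out of 13766 genes compared in spiny mouse and 13969 in laboratory mouse.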

How the data were processed

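The 8 genes and all lists were chosen with earlier results of these data known. The authors deposited 1 table of raw counts per library, made per the paper by aligning reads of 75 bases to the mouse genome (mm10) with STAR (the submitters' processing notes name 2.4.1d) and counting RefSeq genes with HTSeq 0.6.0; spiny mouse reads went to the same genome, and the strand setting is not given in the sources used here. Laboratory mouse epidermis was paired-end and stranded, its dermis single-end and stranded, and spiny mouse single-end and unstranded. From these counts, 5 summary lines were removed, leaving 24500 symbols, and CPM were computed over all gene rows. Tests used edgeR 4.0.16 (filterByExpr, TMM, quasi-likelihood, Benjamini-Hochberg) across all genes in R 4.3.3, after checks on simulated counts, with day as a factor between spiny mouse layers. DESeq2 1.42.0, RLE scaling, no filter, other sets of libraries and leaving out each library were also tried. Library size alone and the edgeR 3 estimate were added after seeing the data. Besides the 8 genes, up to 3 genes per list with the lowest FDR under 0.05, no overlap between groups and at least 1 CPM were named, plus the first gene of a list, and others named here (Il34, Csf1r and H2-Aa outside their comparisons among them) were given for reference after their values were seen. Figures were drawn with matplotlib 3.10.9. The study describes its RNA-seq replicates as biologically independent, without giving the animals per library, so p-values measure the spread between libraries; all replicate pairs differed by more than sampling noise.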

Additional observations from a re-analysis of the deposited data

Results flagged for a closer look

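Of the 8 genes, tested in the only group of 4 or more libraries (the 5 WT center dermis libraries of laboratory mouse, which the study used as 2 sets, replicates 1 and 2 and replicates 3 to 5, and which were taken here as 1 group), 2 had a library far from the others. In both it was replicate 3, with 4.68 CPM of Cd3e and 5.98 CPM of Cd8a. Its distance to the nearest library was 0.855 and 0.909 of the whole range, above Dixon's 95% critical value of 0.71. Chance flags about 1 in 20 groups. The same library held 0 counts of Cd3d, Cd3g and Cd207.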

How the results depend on the processing

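No paired analysis was possible because the labels carry no replicate numbers. Depth limits Cd8a, Foxp3 and Gzmb, which held few counts in many libraries, and groups of 1 or 2 libraries limit every test; a group left with 1 library was assumed to vary like the others. Library size alone moved the median log2 fold change of all genes from -0.12 to -0.87 between laboratory mouse layers, where 4417 genes were called higher and 4746 lower against 2436 and 7415, and from -0.04 to -0.59 between spiny mouse PWD14 and PWD21 epidermis, where 3011 and 2991 became 1335 and 5721. The cause was not tested for any change below. Center against margin epidermis had 176 genes called, 1511 with DESeq2 (2 of the 8 genes), 0 with the edgeR 3 estimate (0 of the 8; Foxp3 turned to 0.04) and 397 with 13 libraries (0 of the 8). Center against margin dermis had 125, with 738, 54 and 323 under DESeq2, the edgeR 3 estimate and all 5 center libraries; with all 5 and with 13 libraries Cd4 turned to 0.83 and 0.77 and Cd8a to 0.52 and 0.40. KO against WT had 8, with 787, 2, 190 and 444 under DESeq2, the edgeR 3 estimate, all 5 WT and 13 libraries, and Cd4 turned to 0.20 under the last 2 of these. Between laboratory mouse layers, 2 of the 8 were called, 4 with library size alone, 1 with the edgeR 3 estimate and 1 with center libraries; Cd3g turned to -0.57 and Cd8a to -0.66 with library size, Cd8a to -0.24 in center and Cd3g to -0.29 in margin libraries. The interaction had 540 genes called and 1125 with DESeq2 (1 of the 8), and Cd4 turned to -0.32 with DESeq2, -0.06 with RLE and -0.10 with the edgeR 3 estimate. In spiny mouse epidermis 4 of the 8 were called with library size alone, and Cd3e turned to -0.01 and Cd207 to -0.45. In dermis Cd3e turned to 0.00 without the filter and 0.03 with library size. Between layers Cd3d turned to -0.02, -0.01 and -0.07 with DESeq2, RLE and library size, and Cd8a to 0.21 at PWD21.

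Leaving out each library in turn moved these counts and log2 fold changes. In center against margin epidermis, genes called ran from 70 to 7405, Gzmb from -2.04 to 6.66, calls among the 8 from 0 to 2, Foxp3 from -1.50 to 5.77, Cd4 from -1.14 to 0.75, Cd8a from -1.18 to 0.27 and Cd3d from -1.06 to 7.04. In center against margin dermis, genes called ran from 19 to 241, Foxp3 from -7.93 to 0.43 and Cd8a from -1.76 to 0.01. In KO against WT, genes called ran from 1 to 3353, Foxp3 from -7.80 to 0.24, calls among the 8 from 0 to 1, Cd4 from -0.58 to 0.06, Cd3e from -0.62 to 4.41, Cd3g from -0.68 to 4.65 and Cd8a from -8.95 to 3.25. Between laboratory mouse layers, Cd8a ran from -0.23 to 1.03, calls among the 8 from 1 to 4 and Cd3g from -0.02 to 0.42. In the interaction, genes called ran from 167 to 1343, Cd4 from -0.73 to 1.11, Foxp3 from -0.78 to 7.97, calls among the 8 from 0 to 1, Gzmb from -4.31 to 4.10, Cd3d from -0.28 to 9.42, Cd3e from -0.34 to 3.42, Cd3g from -0.18 to 0.99 and Cd8a from -0.42 to 1.52. In spiny mouse epidermis, Foxp3 ran from -6.76 to 0.52, Cd207 from -0.02 to 0.19 and genes called from 3470 to 6635. In spiny mouse dermis, calls among the 8 ran from 1 to 2, Cd4 from -1.39 to 1.57, genes called from 1311 to 5118 and Cd3e from -0.38 to 0.20. Between spiny mouse layers, Cd3d ran from -0.18 to 0.46 and calls among the 8 from 3 to 5. Under the alternatives other than leaving out 1 library, 354 member log2 fold changes kept their sign and side of the threshold. With the same sign, 10 lost their call and 9 gained one, and 22 changed sign.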
